A study of Sus scrofa with 18 samples.

Results

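The adhesion G protein-coupled receptors are a family of cell surface proteins, and the 28 genes described here are the rows of the count table whose symbol starts with ADGR, out of 29884 genes in all. Membership was set by the gene name only and by no measured value. The choice of this family and the emphasis on ADGRD1 were made with earlier results of these data known. RNA was sequenced from subcutaneous fat (SAF, back fat at the level of the last ribs) and visceral fat (VAF, beside the kidney) of male Bama miniature pigs from one sire, which were fasted before slaughter at 1 month (infancy), 3 months (puberty) or 6 months (adulthood) of age. By the study's methods 9 pigs, 3 of each age, gave both depots. Which SAF and VAF libraries share a pig is not given in the sources used here, so the tests treat all libraries as separate samples. Each of the 6 groups of depot and age had 3 libraries, from untreated animals of one breed, and no other control exists. Library totals ran from 16404239 to 22857354 counts, and the ADGR genes together took between 0.0761% and 0.193% of a library.

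Adhesion receptors combine a long extracellular part, which binds matrix proteins or proteins of neighbouring cells, with the membrane-spanning part of a G protein-coupled receptor. Most cut themselves at a site just outside the membrane, and the short stretch behind the cut can act as a built-in agonist. The letter after ADGR gives the subfamily. Some members are classical markers of cell types found in fat tissue, such as ADGRE1 (F4/80) of mouse macrophages and ADGRL4 (ELTD1) of blood vessels, so a level in whole tissue depends on its cells, and fewer cells of a type and less RNA per cell cannot be told apart. Subfamily C, the CELSR genes, carries other symbols and falls outside the rule. The table holds 3 members of A, 3 of B, 2 of D, 3 of E, 5 of F, 7 of G, 4 of L and 1 of V.

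Several libraries stood apart and are named with their results. Libraries carry their depot, age and number, so VAF3-3 is the third VAF library at 3 months. VAF3-1 and VAF3-2 held summed levels of 6 urothelial markers (uroplakins and keratins) of 1408 and 531 CPM (counts per 1e+06 counts of the scaled library), against at most 5.06 in the other 16 libraries, with KRT20 listed at 0 in every library. They also held 8302 and 7593 CPM of 6 smooth muscle markers, against 298 to 1237 elsewhere, and 4291 and 4243 CPM of 6 adipocyte markers, against 8825 to 15335 elsewhere. VAF3-3 had 3.44 CPM of the urothelial markers, 514 CPM of smooth muscle markers and 11996 CPM of adipocyte markers. It also had 10.7 CPM of 4 kidney tubule markers, against at most 0.16 CPM in any other library. The study left VAF6-3 out of its comparisons, and so do the tests here. The titles of 4 VAF samples (3 and 6 months) name other libraries than their descriptions do. Groups follow the library names, and both readings were run.

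Members differed widely in level. On the scale of CPM per kilobase of exon, the only scale on which genes are compared here, ADGRF5 was highest with a median of 37.4 over the 18 libraries, followed by ADGRE5 at 24.5, ADGRG1 at 20.9, ADGRL4 at 20.2 and ADGRA2 at 14.6. ADGRD1 was eighth of the 28 with a median of 5.31, and its median was 3.20 in SAF and 10.3 in VAF. These ranks describe this mix of tissue, and the ranges of neighbours in the order overlapped: ADGRE5 spanned 16.4 to 35.2 and ADGRG1 13.7 to 29.9. At the low end ADGRD2, ADGRG4, ADGRG7 and ADGRF1 had a median of 0, with at most 8 counts in any library, and ADGRE3 had at most 13. A library held between 22 and 25 members with at least 1 count.

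**Figure D1:**
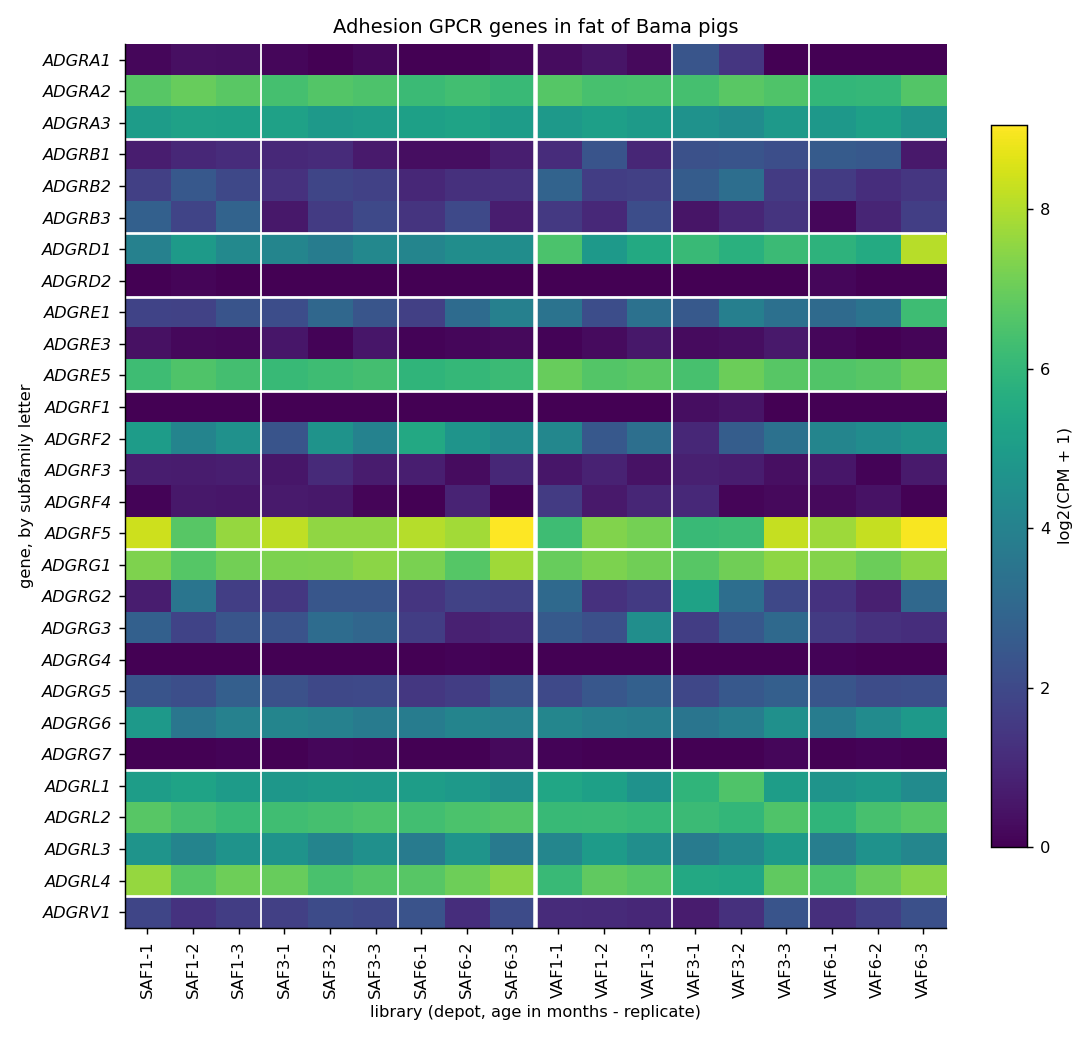
Level of the 28 ADGR genes (rows, by subfamily letter) in the 18 libraries (columns, SAF to the left of the thick line), as log2(CPM + 1) on the colour scale. ADGRF5, ADGRG1, ADGRL4, ADGRE5 and ADGRA2 are bright throughout, ADGRD1 is brighter in VAF, and ADGRL4 and ADGRF5 are darker in VAF3-1 and VAF3-2 than in VAF3-3.

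Subfamily D: ADGRD1 (GPR133), a receptor that raises cAMP through the stimulatory G protein, was higher in VAF than in SAF. The gene lies on chromosome 14 from 24059667 to 24241270 on the minus strand of Sscrofa11.1 and overlaps no other annotated gene. In SAF it measured 14.8, 29.2 and 18.2 CPM at 1 month, 16.4, 13.0 and 17.6 CPM at 3 months, and 16.6, 20.9 and 20.6 CPM at 6 months. VAF libraries held 88.9, 29.0 and 44.5 CPM at 1 month, 70.0, 52.6 and 70.6 CPM at 3 months, and 56.5 and 45.1 CPM at 6 months. Of these 8 VAF libraries 7 lay above all 9 SAF libraries, and VAF1-2 at 29.0 CPM fell just under SAF1-2 at 29.2 CPM. The means were 18.6 ± 4.72 CPM in SAF (SD, n = 9) and 57.2 ± 18.8 CPM in VAF (SD, n = 8). VAF3-3, at 70.6 CPM, did not stand apart from VAF3-1 and VAF3-2 for this gene.

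Averaged over the ages, the log2 fold change of ADGRD1 (log2FC, SAF minus VAF) was −1.61 ± 0.20 (SE), a level 3.05 times as high in VAF, with an edgeR adjusted p of 0.00171. Calls needed an adjusted p below 0.05 together with a change of more than 1.5-fold. The low-count filter kept 23 ADGR genes, and 2 of them were called in this comparison, ADGRD1 and ADGRB1, both higher in VAF. Over all genes 681 of 16664 (4.09%) were called, and 2.90% were called higher in VAF. Both genes were called in all 25 alternatives of this comparison, with adjusted p (edgeR or DESeq2) of at most 0.0218 for ADGRD1 and at most 0.0176 for ADGRB1. DESeq2 called the same 2 members, against 5.72% of all genes, and so did the fit without VAF3-1 and VAF3-2, against 1.66%.

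Within ages, the youngest pigs gave an ADGRD1 log2FC of −1.38 ± 0.44 (edgeR adjusted p 0.422). It reached −2.06 ± 0.21 at 3 months (edgeR adjusted p 0.0405), and −1.39 ± 0.22 in the adults (edgeR adjusted p 0.302). The call at 3 months was 1 of 21 members tested, against 0.0401% of all genes (6 of 14960). It was lost without any one of 5 libraries: leaving out SAF3-1, SAF3-2, SAF3-3, VAF3-1 or VAF3-2 in turn gave edgeR adjusted p of 0.434, 0.351, 0.325, 0.202 and 0.0909, while the log2FC over all 6 such fits stayed between −2.19 and −1.93. With VAF3-3 as the one VAF library at 3 months the log2FC was −2.17 ± 0.23 (edgeR adjusted p 0.0373, 0.107% of all genes called, the lone library being taken to vary like the SAF libraries). Without VAF3-3 it was −2.01 ± 0.21 (adjusted p 0.00196). The direction and size of the ADGRD1 difference were thus close whichever VAF libraries of 3 months were taken. DESeq2 called ADGRD1 and ADGRB1 at 3 months and again at 6 months, where 4.35% and 0.867% of all genes were called. No member was called by edgeR at 1 month (0 of 22, 0.00% of all genes, 6 members and 1702 genes with an unadjusted p under 0.05) or at 6 months (0 of 21, 0.00% of all genes, 3 members and 1016 genes with an unadjusted p under 0.05).

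Transcripts of myeloid markers were higher in VAF. The summed level of 8 myeloid markers was 243 to 810 CPM in SAF and 668 to 1747 CPM in the 8 VAF libraries tested, and 6 of the 8 markers were called higher in VAF in the average over ages. None of the 6 adipocyte markers and none of the 6 endothelial markers was called there. VAF1-2, the VAF library with the lowest ADGRD1 level, also had the lowest myeloid sum in VAF. Other libraries did not follow this order: VAF3-2, with 1747 CPM of myeloid markers, held 52.6 CPM of ADGRD1, and VAF3-1, with 727 CPM, held 70.0 CPM. For ADGRB1, VAF1-2 was the highest library at 1 month, at 4.07 CPM. The part of these cells in the ADGRD1 and ADGRB1 results was not tested.

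ADGRD2, the other member of the subfamily, had 4 counts in all over the 18 libraries and was below the filter of the edgeR fits. PTK7, a membrane protein known to bind and activate ADGRD1, had 4.05 to 14.7 CPM in SAF, 6.84 to 13.6 CPM in VAF outside VAF3-1 and VAF3-2, and 24.8 and 29.5 CPM in that pair. In the average over ages its log2FC was −0.89 ± 0.26 (edgeR adjusted p 0.0639). At 3 months it was −2.03 ± 0.47 with VAF3-3 (adjusted p 0.195) and −2.41 ± 0.27 without it (adjusted p 0.00265). The receptor and this partner thus differed in how VAF3-3 compared with the other VAF libraries at 3 months: PTK7 was at 8.87 CPM there.

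Subfamily B: ADGRB1 (BAI1), known from brain and as a phagocytic receptor for phosphatidylserine on dying cells, was a low-level gene with the largest called difference between the depots. The gene lies on chromosome 4 from 1582321 to 1658639, on the minus strand. SAF libraries measured 0.66, 1.02 and 1.20 CPM at 1 month, 1.08, 1.16 and 0.566 CPM at 3 months, and 0.25, 0.276 and 0.691 CPM at 6 months. VAF libraries measured 1.24, 4.07 and 0.947 CPM at 1 month, 3.77, 4.05 and 3.52 CPM at 3 months, and 5.01 and 4.64 CPM at 6 months. At 1 month the depots overlapped, since VAF1-3 lay below 2 SAF libraries, while at 3 and 6 months they did not.

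The log2FC of ADGRB1 averaged over ages was −2.23 ± 0.33 (edgeR adjusted p 0.00352), 4.69 times as high in VAF. Taken age by age from the youngest, it was −1.11 ± 0.62, −2.04 ± 0.43 and −3.53 ± 0.56, with edgeR adjusted p of 0.488, 0.181 and 0.302. The interaction of depot and age was not called for this gene (edgeR adjusted p 0.812), so the order of these 3 values is a description. The 1-month value rested on VAF1-2, without which it was −0.18 ± 0.47 (edgeR adjusted p 0.886). No member was called for the interaction (0 of 23, 0.00% of all genes, 2 members and 965 genes with an unadjusted p under 0.05). VAF3-3 was close to its pair here too, and without it the 3-month log2FC was −2.11 ± 0.47 (adjusted p 0.0243). The gene had between 4 and 94 counts in a library, so single values are coarse.

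**Figure D2:**
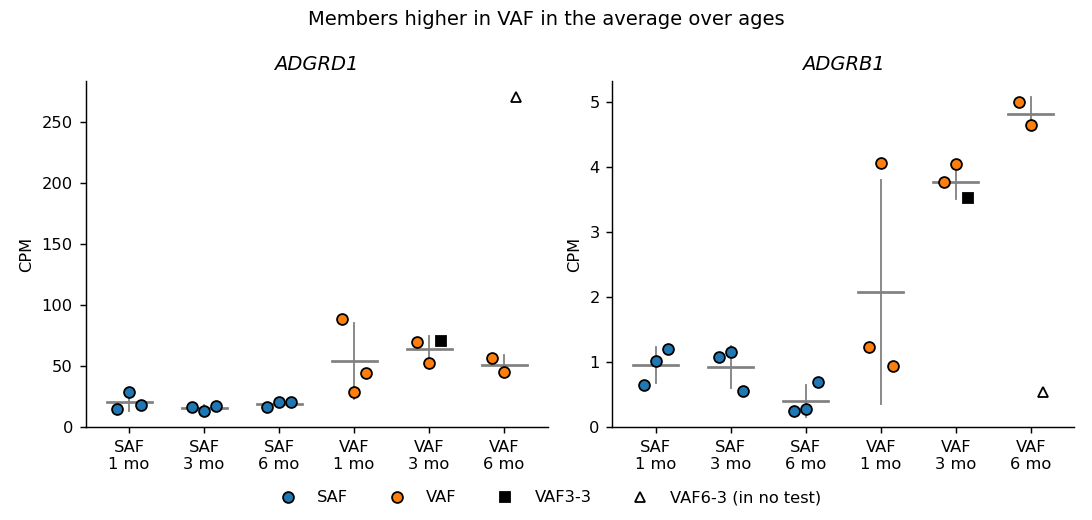
CPM of ADGRD1 (left) and ADGRB1 (right) in each library by depot and age in months; the gray horizontal line is the mean and the vertical line ± 1 SD over the libraries tested (n = 3, and n = 2 for VAF at 6 months). Orange VAF points and the black square (VAF3-3) lie above the blue SAF points at 3 and 6 months, and the open triangle, VAF6-3, is at 271 CPM for ADGRD1 and at 0.537 CPM for ADGRB1.

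The 250 bases before the annotated start of each of these genes are printed to show the sequence next to the members that were higher in VAF. They are given 5′ to 3′ on the strand of the gene, from RefSeq's Sscrofa11.1, for ADGRD1 at chr14:24241271-24241520 and for ADGRB1 at chr4:1658640-1658889. Capitals mark a match, on either strand, to the GC box letters GGGCGG, the ETS core letters CCGGAA or the TATA box letters TATAAA, and no overlap between motifs occurred.
ADGRD1: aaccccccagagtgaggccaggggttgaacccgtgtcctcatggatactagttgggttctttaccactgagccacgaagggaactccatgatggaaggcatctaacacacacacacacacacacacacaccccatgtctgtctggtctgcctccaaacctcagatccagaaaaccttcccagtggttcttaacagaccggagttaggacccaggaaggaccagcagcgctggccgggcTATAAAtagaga
ADGRB1: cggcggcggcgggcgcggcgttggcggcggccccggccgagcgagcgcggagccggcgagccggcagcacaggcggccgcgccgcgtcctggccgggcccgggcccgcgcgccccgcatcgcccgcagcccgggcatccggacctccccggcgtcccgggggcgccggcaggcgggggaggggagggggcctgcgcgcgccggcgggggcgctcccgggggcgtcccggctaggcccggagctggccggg
The ADGRD1 window held 1 TATA box match, and neither of the other motifs. The ADGRB1 window held none of the 3 motifs. Of 19572 windows of the same length before protein-coding genes 9.76% held a TATA box match, 45.9% a GC box match and 13.6% an ETS core match. The 2 windows differed in base composition, with 53.6% G and C for ADGRD1 and 88.4% for ADGRB1, where the median of all windows was 57.6%. A match is a description of letters and not a site.

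ADGRB2 and ADGRB3, receptors best known from nerve cells, were not called in the main comparisons. ADGRB2 had the highest median of the subfamily per length over the 18 libraries, at 0.405 CPM per kilobase, though in VAF its median was 0.393 and that of ADGRB1 0.66. It measured 2.25, 4.69 and 2.92 CPM in SAF at 1 month, 1.42, 2.68 and 2.37 CPM at 3 months, and 0.999, 1.38 and 1.43 CPM at 6 months. The VAF levels were 6.37, 2.12 and 2.26 CPM at 1 month, 5.24, 8.65 and 1.99 CPM at 3 months, and 2.0 and 1.28 CPM at 6 months. VAF3-3, at 1.99 CPM, lay within the SAF libraries, and VAF3-1 and VAF3-2 lay above all of them. ADGRB3 spanned 0.118 to 6.30 CPM, and its log2FC of 1.28 ± 0.48 averaged over ages, the opposite sign to ADGRB1, did not pass (edgeR adjusted p 0.126). Of the B partners, RTN4R, which binds ADGRB1, had a log2FC of −0.82 ± 0.33 (adjusted p 0.155).

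Subfamily E belongs to white blood cells. ADGRE5 (CD97), found on leukocytes and on smooth muscle, was the highest of its subfamily per length. It measured 74.5, 93.0 and 80.2 CPM in SAF at 1 month, 67.9, 74.5 and 81.5 CPM at 3 months, and 59.5, 65.1 and 71.0 CPM at 6 months. VAF gave 124, 98.5 and 107 CPM at 1 month, 85.1, 128 and 104 CPM at 3 months, and 94.9 and 102 CPM at 6 months. Of the 8 VAF libraries 7 lay above all SAF libraries, and VAF3-1 was the exception. The log2FC averaged over ages was −0.51 ± 0.10 (edgeR adjusted p 0.0143), which passed the limit on p but not the limit on the fold. VAF3-3 lay between VAF3-1 and VAF3-2. ADGRE5 overlaps DDX39A on the opposite strand, and since the strand setting of the counting is not given in the sources used here, reads of the overlap cannot be assigned.

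CD55, the membrane protein that ADGRE5 binds, was called higher in VAF with a log2FC of −1.68 ± 0.21 averaged over ages (edgeR adjusted p 0.00171). It stood at 39.2 CPM in VAF3-3 and at 107 and 119 CPM in VAF3-1 and VAF3-2. ADGRE1, the macrophage marker of the mouse, measured 2.31 to 14.2 CPM in SAF (median 4.06) and 3.38 to 14.0 CPM in the VAF libraries tested (median 9.19), with overlapping ranges and a log2FC of −0.79 ± 0.34 (edgeR adjusted p 0.177). ADGRE3, known from neutrophils, summed to 79 counts over all libraries and was below the filter in the main comparisons. It passed in some fits with libraries left out, among them those with VAF3-3 as the one VAF library at 3 months. There its log2FC was −0.72 ± 1.13 at 3 months and −0.10 ± 0.83 in the depot average. The myeloid markers given above also moved with the depot, and their part in the E subfamily was not tested.

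**Figure D3:**
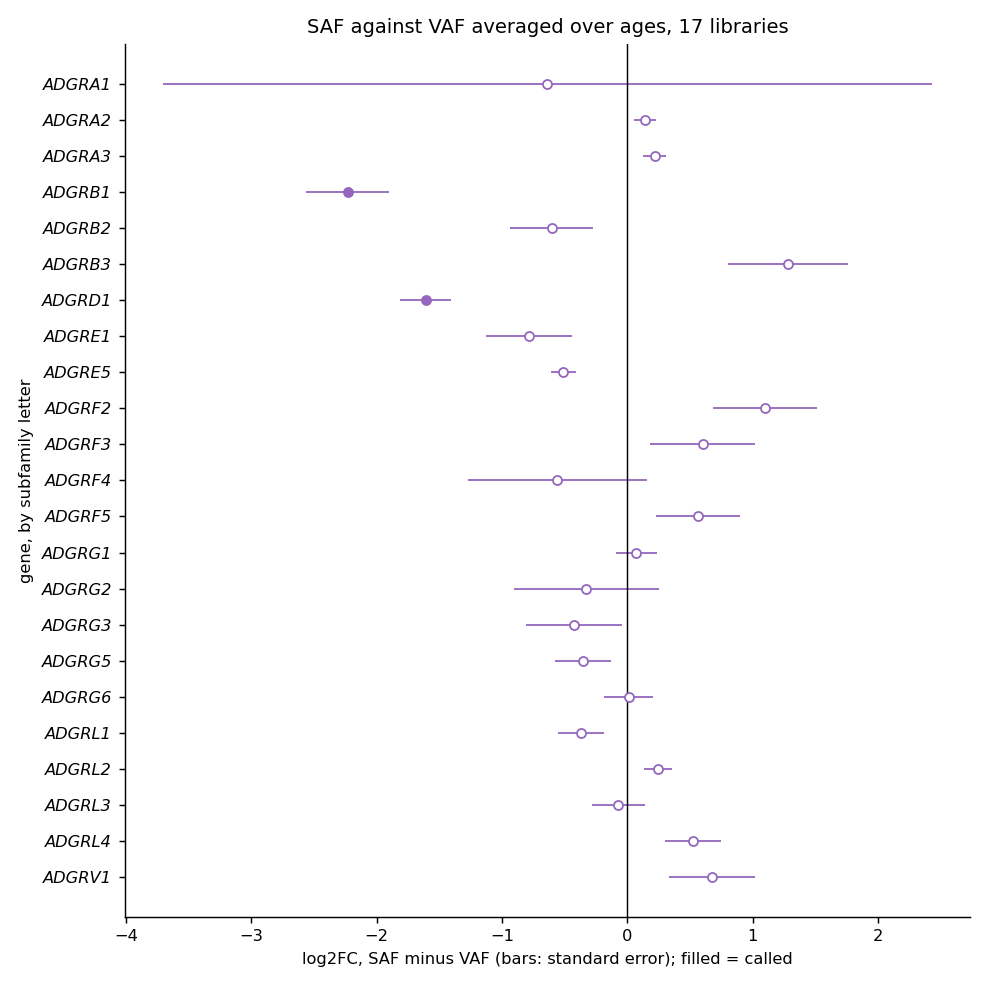
Log2FC between SAF and VAF averaged over ages for the 23 members tested (17 libraries, points with ± 1 SE, positive values higher in SAF, filled points called). ADGRB1 at −2.23 and ADGRD1 at −1.61 are the filled points, and 11 of the 23 values are above 0.

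Taken over the family there was no common shift between depots: 11 of the 23 members tested had a positive and 12 a negative log2FC, with a median of −0.07, against −0.01 over all 16664 genes. An unadjusted p under 0.05 was found for 9 members, 5 of them higher in SAF and 4 higher in VAF. This count is given for direction only, since no share over all genes is set beside it. The 5 members higher in SAF were ADGRA3, ADGRB3, ADGRF2, ADGRL2 and ADGRL4, with log2FC from 0.22 to 1.28. None of these 5 passed adjustment in the fit of 17 libraries (smallest edgeR adjusted p 0.126).

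Subfamily F: ADGRF5 (GPR116), a receptor of blood vessel endothelium and of lung epithelium that controls surfactant, was the member with the highest level per length. It measured 328, 104 and 199 CPM in SAF at 1 month, 290, 187 and 187 CPM at 3 months, and 263, 225 and 532 CPM at 6 months. In VAF it measured 74.4, 162 and 143 CPM at 1 month, 70.0, 72.2 and 308 CPM at 3 months, and 211 and 306 CPM at 6 months. VAF3-3 had over 4 times the level of VAF3-1 and VAF3-2, which were the lowest of all 18 libraries. The gene lies on chromosome 7 from 41640256 to 41769422, 37.0 kb from ADGRF1.

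At 3 months the ADGRF5 log2FC was 0.55 ± 0.58 with all libraries (edgeR adjusted p 0.72), 1.59 ± 0.26 without VAF3-3 (adjusted p 0.00834) and −0.47 ± 0.32 with VAF3-3 as the one VAF library (adjusted p 0.85). Its direction at 3 months therefore depended on which VAF libraries were taken. Averaged over ages it was 0.56 ± 0.33 (adjusted p 0.306), and 0.91 ± 0.27 without VAF3-3 (adjusted p 0.0276). FNDC4, a secreted ligand of ADGRF5, had a log2FC of −0.42 ± 0.25 averaged over ages (edgeR adjusted p 0.309).

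The other F members were lower. ADGRF2 spanned 4.16 to 43.0 CPM in SAF and 0.995 to 20.2 CPM in the VAF libraries tested, and its log2FC averaged over ages was 1.10 ± 0.41 (edgeR adjusted p 0.129). ADGRF3 stayed between 0.0611 and 1.10 CPM and ADGRF4 between 0 and 1.95 CPM. ADGRF1 (GPR110) had counts in VAF3-1 (5) and VAF3-2 (8) and in no other library, so in the other 16 a count of 0 allows up to 3 counts a library.

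Subfamily L: ADGRL4 (ELTD1), a gene of vascular endothelium, was the highest latrophilin-type member per length. In SAF it measured 196, 99.7 and 132 CPM at 1 month, 123, 87.2 and 98.4 CPM at 3 months, and 103, 131 and 178 CPM at 6 months. VAF libraries held 69.9, 115 and 101 CPM at 1 month, 42.8, 40.1 and 115 CPM at 3 months, and 89.9 and 126 CPM at 6 months. VAF3-1 and VAF3-2 were again the lowest of all libraries, and VAF3-3 was within the SAF range. The 3-month log2FC was 0.62 ± 0.41 (edgeR adjusted p 0.573), 1.26 ± 0.21 without VAF3-3 (adjusted p 0.00823) and −0.16 ± 0.26 with VAF3-3 alone (adjusted p 0.932). Summed endothelial markers were 924 CPM in VAF3-1, 1378 CPM in VAF3-2 and 1624 CPM in VAF3-3, against 1321 to 2214 CPM in the other 15 libraries, and their part in the ADGRL4 and ADGRF5 levels was not tested.

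ADGRL1, a latrophilin best known from synapses, went the other way: it was 59.3 and 94.6 CPM in VAF3-1 and VAF3-2 and 19.9 to 40.3 CPM in the other 16 libraries, with VAF3-3 at 31.8 CPM. Its 3-month log2FC was −1.16 ± 0.38 (edgeR adjusted p 0.277), and −1.49 ± 0.23 without VAF3-3 (adjusted p 0.0068). ADGRL2 (59.6 to 103 CPM) and ADGRL3 (12.1 to 30.7 CPM) held VAF3-1 and VAF3-2 within the range of the others. FLRT3, a ligand of latrophilins on neighbouring cells, was called higher in SAF with a log2FC of 1.05 ± 0.15 averaged over ages (adjusted p 0.00278).

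Subfamily G: ADGRG1 (GPR56), a receptor for collagen III and transglutaminase that is known from brain development and cytotoxic lymphocytes, was not called between depots. It measured 158, 100.02 and 139 CPM in SAF at 1 month, 153, 156 and 177 CPM at 3 months, and 152, 99.6 and 217 CPM at 6 months. The VAF levels were 123, 155 and 136 CPM at 1 month, 104, 136 and 181 CPM at 3 months, and 166 and 129 CPM at 6 months. The depots overlapped at each age, and the log2FC averaged over ages was 0.07, with a 95% interval from −0.25 to 0.39 (edgeR adjusted p 0.81). Its ligand gene COL3A1 had a log2FC of 0.64 ± 0.37 (adjusted p 0.297). ADGRG1 has ADGRG3 2.19 kb downstream and ADGRG5 35.0 kb upstream on chromosome 6.

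ADGRG2 (GPR64), known from the ducts of the male reproductive tract, varied widely within groups. It measured 0.66, 10.4 and 2.24 CPM in SAF at 1 month, 1.77, 4.38 and 4.38 CPM at 3 months, and 1.62, 2.49 and 2.28 CPM at 6 months. VAF gave 7.49, 1.43 and 1.89 CPM at 1 month, 36.1, 8.65 and 2.93 CPM at 3 months, and 1.53 and 0.733 CPM at 6 months. VAF3-1 alone lay above all 9 SAF libraries, and VAF3-3 lay within the SAF range. From 3 to 6 months in VAF its log2FC (younger minus older) was 3.80 ± 1.17 with an edgeR adjusted p of 0.452, while DESeq2 called it (3.83 ± 0.96, adjusted p 0.00698) as 1 member against 2.40% of all genes. It was 2.40 ± 0.80 without VAF3-1 (edgeR adjusted p 0.862), and 1.36 ± 0.79 with VAF3-3 as the one VAF library at 3 months (adjusted p 0.667). ADGRG2 overlaps LOC106506916 on the opposite strand.

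ADGRG3 (GPR97), a gene of granulocytes, measured 5.83, 2.5 and 4.22 CPM in SAF at 1 month, 4.05, 8.21 and 7.0 CPM at 3 months, and 2.12, 0.773 and 0.956 CPM at 6 months. In VAF it measured 4.95, 3.64 and 21.2 CPM at 1 month, 2.15, 4.65 and 7.51 CPM at 3 months, and 2.0 and 1.47 CPM at 6 months. At 6 months each depot lay below its own libraries of 3 months. From 3 to 6 months in SAF the log2FC was 2.33 ± 0.49, with an edgeR adjusted p of 0.199 and a DESeq2 adjusted p of 7.04e-04, which made it 1 member called by DESeq2 against 1.61% of all genes. From 1 to 6 months in VAF it was 2.51 ± 0.85 (edgeR adjusted p 0.203) and DESeq2 called it alone among the members (adjusted p 0.0163, against 5.65% of all genes). Without VAF1-3 it was 1.31 ± 0.45 (edgeR adjusted p 0.275), and under the other reading of the labels 1.14 ± 0.95 (adjusted p 0.542). VAF1-3, with the highest ADGRG3 level, also had the highest sum of 4 neutrophil markers, 60.9 CPM against at most 36.0 in the other libraries. The 36.0 CPM was in SAF6-1, where ADGRG3 was at 2.12 CPM. At 3 months the sums were 8.04, 12.8 and 20.1 CPM in SAF and 4.66, 9.50 and 9.55 CPM in VAF. At 6 months they were 36.0, 16.5 and 9.88 CPM in SAF and 24.7 and 18.8 CPM in the VAF libraries tested. The part of these cells was not tested.

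The remaining G members were not called in any main comparison. ADGRG6 (GPR126), which Schwann cells need to form myelin, spanned 10.6 to 28.5 CPM with a log2FC of 0.01 ± 0.20 averaged over ages (edgeR adjusted p 0.984), and ADGRG5 spanned 1.75 to 5.93 CPM with −0.36 ± 0.22 (adjusted p 0.329). ADGRG4 had 2 counts in all and ADGRG7 13, and both were below the filter of the edgeR fits.

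Subfamily A: ADGRA2 (GPR124), which works with RECK as a co-receptor for WNT7 ligands in blood vessels, was not called between depots. It measured 102, 122 and 105 CPM in SAF at 1 month, 81.7, 97.9 and 90.4 CPM at 3 months, and 71.2, 79.0 and 68.9 CPM at 6 months. VAF libraries held 99.7, 84.7 and 86.1 CPM at 1 month, 81.9, 106 and 94.2 CPM at 3 months, and 62.7 and 63.8 CPM at 6 months. In both depots the libraries of 6 months that were tested lay below those of 1 month. VAF6-3, which was not tested, was at 98.7 CPM, above VAF1-2 and VAF1-3. The log2FC from 1 to 6 months was 0.60 ± 0.17 in SAF (edgeR adjusted p 0.217) and 0.51 ± 0.16 in VAF (adjusted p 0.171), neither of them called. With VAF6-3 included the VAF value was 0.26 ± 0.24 (edgeR adjusted p 0.722). Between depots the log2FC averaged over ages was 0.14, with a 95% interval from −0.04 to 0.31 (adjusted p 0.344). RECK itself was called higher in SAF (log2FC 0.69 ± 0.16, adjusted p 0.0257).

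ADGRA3 stayed between 20.3 and 37.5 CPM, with VAF3-1 and VAF3-2 below the other 16 libraries. ADGRA1, a gene of the nervous system, had 81 and 34 counts in VAF3-1 and VAF3-2, 0 in VAF3-3, and at most 10 in any other library. The SAF libraries at 3 months held 2, 0 and 3 counts, so no fold is given for it.

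Subfamily V: ADGRV1, a very large receptor of inner ear hair cells and the retina that is mutated in Usher syndrome, was low. It measured 2.75, 1.53 and 2.14 CPM in SAF at 1 month, 2.28, 3.16 and 2.83 CPM at 3 months, and 4.0, 1.27 and 3.19 CPM at 6 months. The VAF levels were 1.18, 1.13 and 0.988 CPM at 1 month, 0.628, 1.40 and 4.16 CPM at 3 months, and 1.35 and 2.20 CPM at 6 months. VAF3-3 was the highest VAF library and VAF3-1 the lowest. The log2FC averaged over ages was 0.68 ± 0.34 (edgeR adjusted p 0.235). ADGRV1 overlaps LYSMD3, ADGRA2 overlaps BRF2, ADGRG5 overlaps CCDC102A and ADGRB3 overlaps LOC110259411, so reads of those overlaps cannot be assigned either.

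Taking VAF3-3 apart from VAF3-1 and VAF3-2 changed the 3-month comparison of the depots for several members, and for genes at large. ADGRD1 was called with and without VAF3-3, and the log2FC of ADGRB1 changed little. Without VAF3-3, 8 of 22 members were called, against 17.6% of all genes (2740 of 15571). ADGRA1, ADGRB1, ADGRB2, ADGRD1, ADGRG2 and ADGRL1 were higher in VAF and ADGRF5 and ADGRL4 higher in SAF. ADGRA1 passed the low-count filter there only through VAF3-1 and VAF3-2, with 81 and 34 counts against 2, 0 and 3 in SAF. Its call therefore adds nothing to those counts. With VAF3-3 as the one VAF library 1 of 23 was called, ADGRD1. VAF3-1 and VAF3-2 both lay outside the range of the other 16 libraries for 6 members. They were above it for ADGRA1, ADGRF1 and ADGRL1 and below it for ADGRA3, ADGRF5 and ADGRL4. For 22 members at least one of them lay within. The share of all genes outside that range was not computed, so these counts only describe the members. The urothelial, smooth muscle and adipocyte marker sums given at the outset moved with this pair. The sum of 4 mesothelial markers did too, at 505 and 314 CPM against 17.01 CPM in VAF3-3 and at most 24.8 CPM elsewhere. These 4 include a uroplakin (UPK3B) and a keratin (KRT19), so the sum cannot be read apart from the urothelial markers. The part of these cells and markers in the 6 members was not tested.

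**Figure D4:**
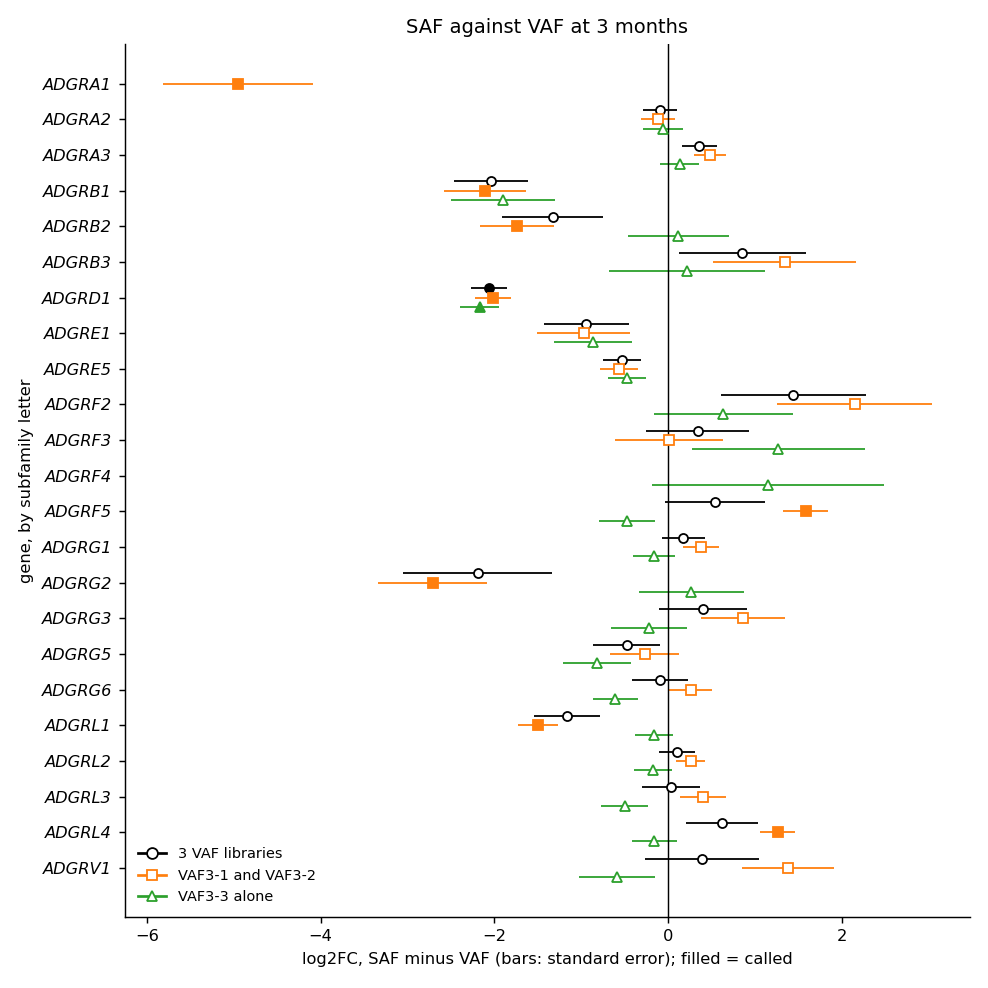
Log2FC between SAF and VAF at 3 months by member, with ± 1 SE, using all 3 VAF libraries (black circles), VAF3-1 and VAF3-2 (orange squares) or VAF3-3 alone (green triangles); positive values are higher in SAF and filled points were called. ADGRD1 and ADGRB1 stay at or below −1.90 in the 3 fits, whereas ADGRF5, ADGRL4, ADGRL1, ADGRG2 and ADGRB2 are spread apart. ADGRA1 rests on at most 3 counts in a SAF library.

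**Figure D5:**
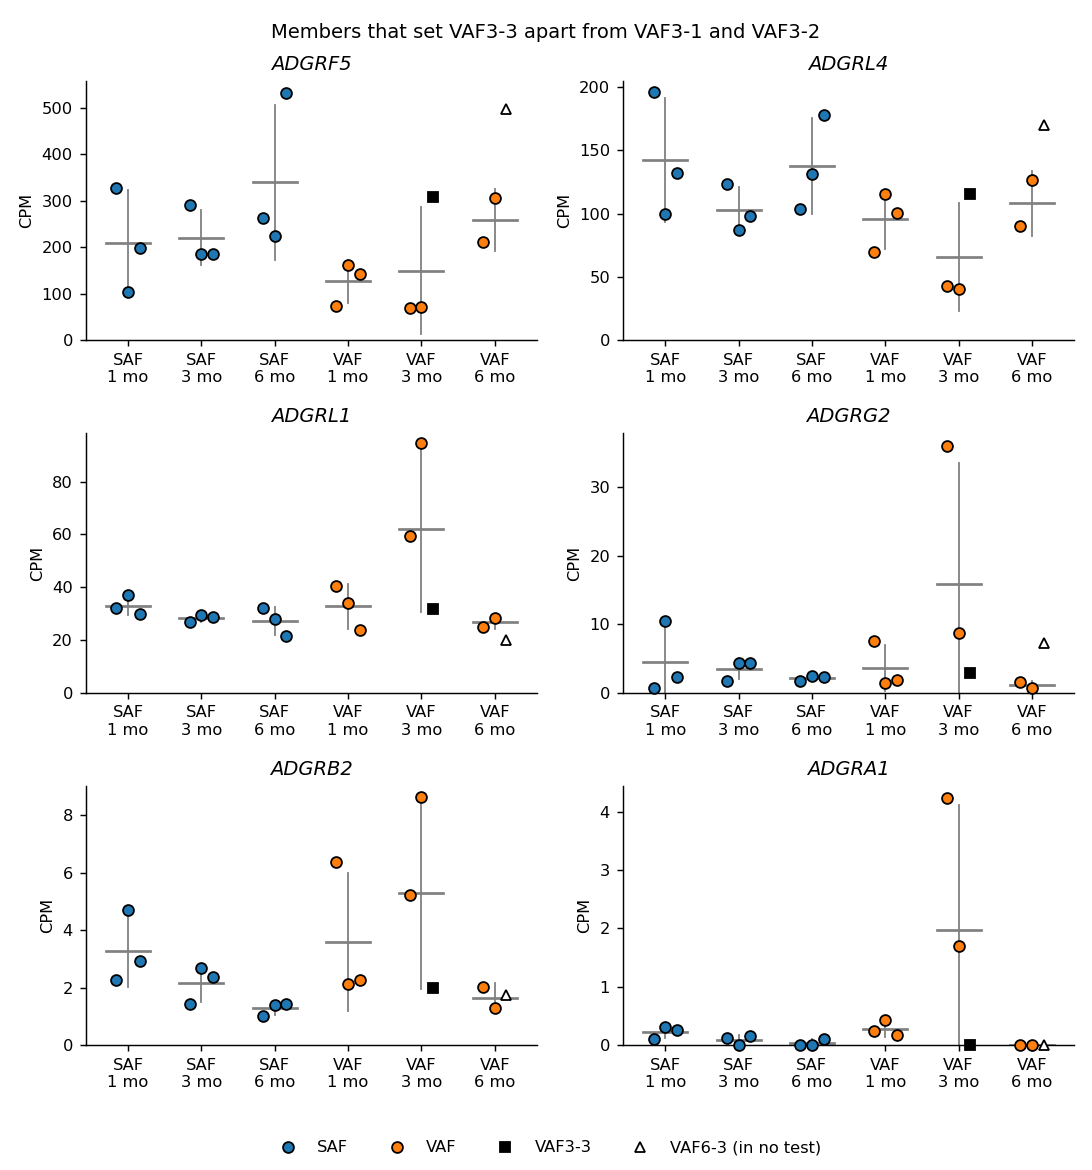
CPM of 6 members by depot and age in months, with the mean as a gray horizontal line and ± 1 SD as a vertical line (cut at 0) over the libraries tested, and VAF6-3 as an open triangle. VAF3-3 (black square) is at 308 CPM for ADGRF5 and 115 CPM for ADGRL4, where VAF3-1 and VAF3-2 are at or below 72.2 and 42.8 CPM, and it is below that pair for ADGRL1, ADGRG2, ADGRB2 and ADGRA1.

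Age comparisons gave no call of a member by edgeR. In SAF 0 of 21 members were called between 1 and 3 months (0.101% of all genes), 0 of 21 between 3 and 6 months (0.00%) and 0 of 21 between 1 and 6 months (0.303%). In VAF these counts were 0 of 22 (0.00%), 0 of 22 (0.00%) and 0 of 21 (0.936%). An unadjusted p under 0.05 was found for 1, 1 and 5 members in SAF and for 0, 3 and 4 in VAF, where all genes gave 2027, 1404 and 1881 in SAF and 1385, 1683 and 2719 in VAF.

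The VAF age comparisons turned on VAF3-3 as well. Without it 2 of 23 members were called between 1 and 3 months (ADGRA1 higher at 3 months and ADGRL4 lower), against 6.44% of all genes. Between 3 and 6 months 5 of 22 were called, ADGRA1, ADGRG2 and ADGRL1 higher at 3 months and ADGRF5 and ADGRL4 lower, against 11.0% of all genes. The depot average without VAF3-3 called 6 of 23, adding ADGRF2, ADGRF5, ADGRL4 and ADGRV1 as higher in SAF, against 12.9% of all genes. For the interaction ADGRL1 alone was then called among the members (edgeR adjusted p 0.0352), against 2.19% of all genes. These comparisons share the libraries VAF3-1 and VAF3-2. ADGRA1 passed the low-count filter only through that pair, so its calls in the age comparisons add nothing to its counts given above.

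Partners and signalling proteins were read from 2 lists. Of 34 genes for ligands and partners of adhesion receptors 28 were tested in the depot average: FLRT3 and RECK passed with higher levels in SAF and CD55 with a higher level in VAF, at a median log2FC of 0.11. These 3 of 28 stand against 4.09% of all genes. At 3 months without VAF3-3, 13 of 27 were called, 7 with the higher level in SAF and 6 in VAF, against 17.6% of all genes. With VAF3-3 none of 24 was, against 0.0401% of all genes. Of 15 G protein alpha subunits and arrestins 14 were tested in the depot average. GNA14 (log2FC −1.86 ± 0.42, edgeR adjusted p 0.0248), GNA15 (−1.35 ± 0.23, adjusted p 0.00707) and ARRB2 (−0.74 ± 0.19, adjusted p 0.0367) were called higher in VAF and none higher in SAF, with a median of −0.06. These 3 of 14 stand against 2.90% of all genes called higher in VAF. GNA14 and GNA15 encode alpha subunits of the Gq class, and ARRB2 encodes an arrestin that uncouples receptors. GNA14 was at 43.2 and 12.2 CPM in VAF3-1 and VAF3-2 and at 2.76 CPM in VAF3-3. GNAS, the stimulatory subunit through which ADGRD1 signals, had a log2FC of −0.09 ± 0.11 (adjusted p 0.64).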

How the data were processed

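Per the labels and the study's methods, the authors cleaned the read pairs using fastp, and HISAT2 (2.0.4 in the submitters' processing notes) placed them on Sscrofa11.1. HTSeq-count then gave the reads per gene. They deposited raw counts per gene, without normalization, and all columns of samples were used. The annotation release and strand setting of the counting are not given in the sources used here. Depot and age in the table's library names set the groups, with 3 libraries in each. The titles and descriptions of 4 VAF samples of 3 and 6 months disagree. VAF6-3 was left out of the tests, as the study did. In the main tests p-values measure the spread between libraries within groups, from the pigs sampled. By the study's methods each pig gave both depots. Which SAF and VAF libraries share a pig is not given, so the comparisons of depots leave this pairing out.

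Each comparison of 2 groups used their libraries alone and the quasi-likelihood test of edgeR 4.0.16 (R 4.3.3), after filterByExpr and TMM scaling, with Benjamini-Hochberg adjustment over all genes. The average over ages and the interaction came from 1 fit of 17 libraries. Log2FC is SAF minus VAF, or younger minus older. CPM are scaled by TMM over all 18 libraries, and lengths and positions are from RefSeq's Sscrofa11.1, which matched all 28 members. The scripts were tested on simulated data. Figures used matplotlib 3.10.9.

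Alternatives were DESeq2 1.42.0, its size factors, no filter, 1 fit of 17 libraries, a replicate block, the second reading of the labels, inclusion of VAF6-3, no limit on the fold and each library left out. Leaving out VAF3-1 and VAF3-2 was added after seeing the data. Per-library values are given for ADGRD1, for members called by edgeR or in a DESeq2 fit of depots or neighbouring ages, and for the highest member per length of each subfamily. List genes are named where called in the depot average or as partners. The family, the lists, the emphasis on ADGRD1 and the separate reading of VAF3-3 were chosen with earlier results of these data known.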

Additional observations from a re-analysis of the deposited data

Results flagged for a closer look

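VAF6-3 entered no comparison, and 2 members stood over 2-fold above the highest other library there. ADGRD1 reached 270.51 CPM, 3.04 times the next library (VAF1-1). ADGRE1 reached 74.93 CPM, 5.26 times the next. ADGRE5 was also highest in VAF6-3, at 128 CPM, just above VAF3-2. The same library had the highest sum of myeloid markers (2533 CPM, against at most 1747 elsewhere) and of lymphatic endothelial markers (546 CPM, against at most 304), and its part in the 2 levels was not tested. ADGRB1, in contrast, was at 0.537 CPM in VAF6-3, below the other 8 VAF libraries. Of the 28 members 24 lay within the range of the other 17 libraries, and the share of all genes within it was not computed. Including VAF6-3 moved the depot average of ADGRD1 to a log2FC of −2.03 and that of ADGRB1 to −2.05, both still called by edgeR.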

How the results depend on the processing

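ADGRD1 and ADGRB1 kept their direction and their call in the depot average under every alternative run. Counts of members called moved by more than 1.5 times in 20 of 165 recomputed counts. With DESeq2 they were 2 at 3 months, 2 at 6 months, 1 between 3 and 6 months in SAF, 1 in VAF, and 1 between 1 and 6 months in VAF. With each library left out in turn they ranged from 0 to 8 at 3 months, from 0 to 2 between 1 and 3 months in VAF, from 0 to 5 between 3 and 6 months in VAF, from 2 to 6 in the depot average and from 0 to 1 for the interaction, and the upper value came without VAF3-3 each time. Where VAF at 6 months was left with 1 library, it was taken to vary like the other groups.

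Replicate numbers were not taken as pairs: between SAF and VAF, deviations of libraries with one number correlated from −0.222 to 0.507, with 5 of 8 above 0.1. With the replicate block, members called were 0 at 3 months (ADGRD1 −2.06, edgeR adjusted p 0.0577) and 5 at 6 months (ADGRB1, ADGRB3, ADGRD1, ADGRE5 and ADGRF2, against 5.12% of all genes). In the depot average they were 5 (ADGRB1, ADGRB3, ADGRD1, ADGRE1 and ADGRF2, 2.98%), where the block gave edgeR adjusted p of 0.0246 for ADGRF2 and 0.0278 for ADGRB3. Between ages the block joins libraries of different pigs, since each pig was killed at 1 age, so its calls there carry no weight. Deviations of libraries with one number correlated from −0.373 to 0.405 between ages, with 6 of 16 above 0.1. The block called 7 members between 3 and 6 months in VAF (ADGRA1, ADGRB2, ADGRF2, ADGRF5, ADGRG2, ADGRL1 and ADGRL4, 14.7%) and 1 between 1 and 6 months in VAF (ADGRF5, 5.46%). Here too ADGRA1 passed the low-count filter only through VAF3-1 and VAF3-2.

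For 27 member differences chosen because the text turns on them, 7 of 468 recomputed values reversed, these 7 with VAF3-1 and VAF3-2 left out. Over all 215 member differences between groups, leaving out 1 library turned the direction of 75, of which 0 were called and 0 had an unadjusted edgeR p under 0.05. With both VAF3-1 and VAF3-2 left out, the log2FC at 3 months became −0.47 for ADGRF5, −0.16 for ADGRL4, 0.12 for ADGRB2 and 0.27 for ADGRG2. Between 3 and 6 months in VAF it became 0.25 for ADGRF5 and 0.087 for ADGRL4, and between 1 and 3 months in VAF −0.26 for ADGRL4. The other reading of the labels gave the same counts, with a log2FC of −1.63 for ADGRD1 and −2.21 for ADGRB1 in the depot average. The cause of these changes was not tested. Members under about 1 CPM rest on few counts.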

Other observations

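Values noticed after the data were seen concern SAF1-2 and VAF1-1, the libraries with the highest sums of 5 stromal progenitor markers (30293 and 27701 CPM, against 3682 to 17816 CPM in the other 16). ADGRD1 was highest of its depot in both, at 29.2 and 88.9 CPM, apart from VAF6-3. ADGRB2 was highest of its group in both, at 4.69 and 6.37 CPM, and so was ADGRG2, at 10.4 and 7.49 CPM. ADGRF5 was lowest of its group in both, at 104 and 74.4 CPM. SAF6-3, with the lowest stromal sum, had the highest ADGRF5 and ADGRG1 levels of all libraries, at 532 and 217 CPM. VAF6-2, with a stromal sum almost as low (3765 CPM), held 306 CPM of ADGRF5 and 129 CPM of ADGRG1. These are values of single libraries and were put to no test.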
